A study of Rattus norvegicus with 9 samples.

Results

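The genes described here are 10 components of the WNT signaling pathway, chosen by name from the deposited table of gene expression in rat knee cartilage. They comprised the secreted antagonists Frzb, Sfrp1, Sfrp2, Dkk3 and Wif1, the receptors Fzd1, Lrp5 and Lrp6, and the cytoplasmic components Axin2 and Ctnnb1. The rule used gene names and no threshold on expression, and it found 10 of the 32043 genes in the table. All 10 had a mean of at least 0.5 FPKM over the libraries, as did 13898 genes in all, and only those were tested. FPKM is a count of fragments divided by gene length and by library size, so that levels can be compared between genes.

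WNT proteins are secreted signals that bind a Frizzled receptor together with the co-receptor LRP5 or LRP6 at the cell surface. Binding stops a cytoplasmic complex built on AXIN from marking β-catenin for destruction, and the β-catenin that escapes enters the nucleus and switches on target genes with TCF and LEF factors. Articular cartilage is known for its secreted WNT antagonists, which limit this signal, and excess β-catenin activity in the joint has long been tied to cartilage loss and to bone formation at the joint margin.

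The study treated knee osteoarthritis (KOA) in male Sprague–Dawley rats with Shengyu decoction (SYD), a Chinese herbal formula. RNA sequencing covered 3 groups of 3 libraries each. Control rats had a sham operation, with the capsule of the joint opened and closed again. In the model group KOA was induced by the modified Hulth method, in which the medial collateral and anterior cruciate ligaments of the left knee were cut out and the medial meniscus was removed, and the rats were then driven to daily activity. The SYD-H group received SYD extract by gavage for 4 weeks after the same KOA modeling, at the highest of the dose levels in the study's methods. The labels call this last group only SYD and give no dose. Its library names begin with CXTB, which the sources used here do not explain, and CXB is the study's short name for its positive control drug. The rats were 8 weeks old at the start, and the methods place collection 8 weeks after surgery in all groups. This is a surgical model of joint instability with driven activity added. SYD-H against control therefore compares surgery, driven activity and SYD together with the sham operation. The labels do not say that the 3 libraries of a group came from separate animals, so each p-value measures the spread between libraries, which may be technical.

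The libraries differed in ways that reached every gene. Recovered reads numbered 14914121 to 19510537 per library, but mitochondrial genes took 4.05% to 4.86% of them in control, 39.5% to 90.7% in model and 23.7% to 72.7% in SYD-H. Model replicates 1 and 3 and SYD-H replicate 3 stood apart with over 50% mitochondrial reads, and the other reads in those libraries numbered 1744769, 3611325 and 5153851. The labels name the tissue as cartilage, although their extraction text speaks of retina. The summed level of 16 chondrocyte markers ran from 511 to 12237 FPKM in control, from 236 to 1049 FPKM in model and from 203 to 1549 FPKM in SYD-H. The cartilage matrix gene Matn1 was listed at 0 in all 6 model and SYD-H libraries. Osteoblast and osteocyte markers summed to 4103 to 8314 FPKM in control, 1716 to 10412 FPKM in model and 10080 to 14256 FPKM in SYD-H, so RNA of bone cells was present in every library. In tissue RNA of this kind, fewer cells of a type and less RNA per cell cannot be told apart.

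The upstream regions of 3 genes are shown, chosen as follows. Axin2 is itself a classic target of β-catenin, Wif1 had the largest difference of the 10 between SYD-H and control in log2(FPKM + 1), and Frzb is the antagonist that was highest beside Wif1 in control. Each sequence is the 250 bases before the annotated start in RefSeq, build GRCr8, on the gene's own strand. Capitals mark the 7-base TCF and LEF words, which were searched for on both strands. These were CTTTGAA with its variant CTTTGAT, and CTTTGTA with its variant CTTTGTT.
Axin2: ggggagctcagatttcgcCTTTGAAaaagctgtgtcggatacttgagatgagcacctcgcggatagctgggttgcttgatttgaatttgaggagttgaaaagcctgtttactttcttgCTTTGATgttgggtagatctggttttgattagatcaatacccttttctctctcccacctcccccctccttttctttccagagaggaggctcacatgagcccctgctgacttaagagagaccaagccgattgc
Wif1: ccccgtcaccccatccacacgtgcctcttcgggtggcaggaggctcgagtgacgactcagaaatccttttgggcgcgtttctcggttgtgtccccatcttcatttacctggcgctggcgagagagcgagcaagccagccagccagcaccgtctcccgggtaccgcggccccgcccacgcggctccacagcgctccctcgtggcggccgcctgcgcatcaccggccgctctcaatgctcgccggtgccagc
Frzb: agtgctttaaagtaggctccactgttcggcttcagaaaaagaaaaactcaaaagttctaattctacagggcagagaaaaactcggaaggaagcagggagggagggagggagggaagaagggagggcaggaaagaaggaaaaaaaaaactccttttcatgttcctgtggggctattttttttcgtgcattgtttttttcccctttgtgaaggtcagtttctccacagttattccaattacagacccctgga
In GRCr8 these are chr10:94398535-94398784 on the plus strand for Axin2, chr7:58433329-58433578 on the plus strand for Wif1 and chr3:85772097-85772346 on the minus strand for Frzb. The Axin2 region held CTTTGAA at 232 to 226 bases and CTTTGAT at 132 to 126 bases before the start, both on the gene's strand. The reference had an upstream region for 6 of the 10 genes (Frzb, Sfrp2, Wif1, Fzd1, Axin2 and Ctnnb1), and of these Axin2 alone held a word. Of 33469 upstream regions of the same length, 4985 (14.9%) held at least 1 word. G and C made up 68.0% of the Wif1 region and 43.6% of the Frzb region, against a median of 51.2% over all regions. A match of letters is a description and was not tested as a binding site.

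Over the 10 genes, the levels spanned a wide range with Ctnnb1 at the top in every group. The mean of Ctnnb1 was 67.2 ± 14.8 FPKM in control, 113 ± 18.8 in model and 123 ± 14.4 in SYD-H (SD, n = 3). Wif1 came next in each group, at 20.8 ± 10.8, 34.2 ± 19.8 and 68.2 ± 34.3 FPKM. Frzb came after Wif1 in control, at 18.3 ± 12.8 FPKM, and its spread overlapped that of Wif1 there. In SYD-H the gene after Wif1 was Dkk3 at 9.62 ± 6.25 FPKM, followed by Lrp5 at 8.80 ± 5.34 and Frzb at 6.39 ± 2.96, which did not differ beyond their spread. Axin2 was lowest in every group, at 1.25 ± 0.473 FPKM in control, 0.254 ± 0.440 in model and 0.206 ± 0.357 in SYD-H.

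**Figure D1:**
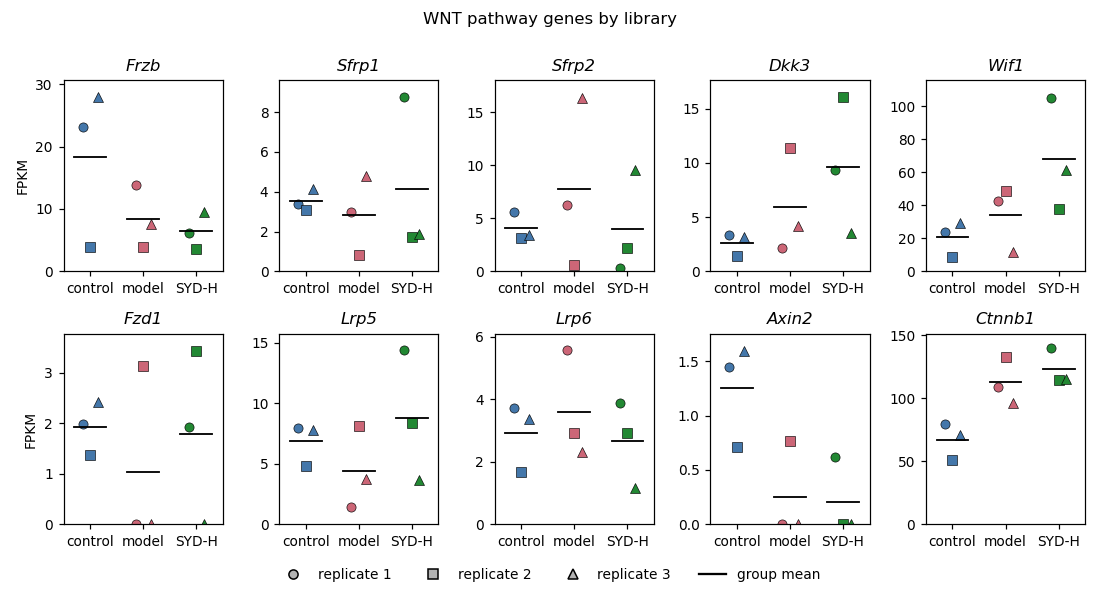
Level of each of the 10 WNT genes in FPKM (vertical axis, linear from 0, with its own scale in each panel) in the 9 libraries, by group. Symbols mark the replicate and bars the group mean. Control replicate 2 lies lowest of the control libraries in all 10 panels, and Ctnnb1 is the gene whose 3 control libraries lie below the other 6.

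Among the antagonists, Wif1 had the largest difference between SYD-H and control in log2(FPKM + 1), while by the ratio of group means Dkk3 (3.63) was above Wif1 (3.28). WIF1 binds WNT proteins outside the cell and keeps them from their receptors. Its level was 24.0, 8.76 and 29.6 FPKM in control replicates 1 to 3. The model libraries had 42.4, 48.6 and 11.6 FPKM. The SYD-H libraries had 105, 37.9 and 61.4 FPKM. All 3 SYD-H libraries lay above all 3 control libraries, while the model libraries spread across both ranges, with replicate 3 below 2 of the control libraries. Wif1 was higher in SYD-H than in control by 1.70 on the scale of log2(FPKM + 1) (SE 0.55, 95% interval 0.34 to 3.06), with a limma p of 0.0222, an adjusted p of 0.0872 and an exact two-sided permutation p of 0.1, the smallest that 3 against 3 libraries allow. It passed the study's kind of threshold, an unadjusted p under 0.05 with an absolute log2 fold change over 1, but not an adjusted p of 0.05. The limma p was over 0.05 without SYD-H replicate 1, where the value was 1.33 (adjusted p = 0.181), and without SYD-H replicate 3, where it was 1.72 (adjusted p = 0.128). Against model, Wif1 in SYD-H differed by 1.08 (SE 0.63, interval -0.43 to 2.60, limma adjusted p = 0.723), which did not pass.

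Dkk3 was the other antagonist that passed this threshold. DKK3 belongs to the Dickkopf family, although unlike DKK1 it is not a standard blocker of LRP6. Control libraries had 3.31, 1.44 and 3.21 FPKM and model libraries 2.20, 11.4 and 4.20 FPKM. SYD-H libraries had 9.30, 16.0 and 3.54 FPKM. Each SYD-H library was above each control library, yet the lowest of them, replicate 3, exceeded the highest control by little, and model replicate 2 lay within the SYD-H range. The SYD-H against control difference was 1.39 (SE 0.53, interval 0.09 to 2.68, limma p = 0.0394, adjusted p = 0.125, exact permutation p = 0.1). It kept a p under 0.05 without SYD-H replicate 3 (1.90, adjusted p = 0.0276) and lost it in each of the other 5 fits that left out 1 library, where the value ran from 0.95 to 1.53 and the adjusted p from 0.199 to 0.319. Rescaling each library to a common total in which mitochondrial RNA counts (TPM) ended both calls, with differences of 0.22 for Wif1 (limma adjusted p = 0.852) and 0.22 for Dkk3 (adjusted p = 0.868), where the median of all tested genes was -1.31. The summed level of 10 synovial fibroblast markers was 87.4 to 253 FPKM in control, 137 to 1102 in model and 384 to 1812 in SYD-H, with 6 of the 10 called up and 1 called down in SYD-H against control. Sums of osteoblast and osteocyte, osteoclast and endothelial markers were also higher in every SYD-H library than in every control library, with 2 of 10, 6 of 8 and 6 of 7 tested markers called up. The highest osteoblast sum, 14256 FPKM, was in SYD-H replicate 1, the library with the most Wif1. Replicates 2 and 3 of SYD-H had 11812 and 10080 FPKM, an order opposite to that of their Wif1. The part of synovial, bone and endothelial cells in the values of Wif1 and Dkk3 was not tested.

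Frzb, also called secreted frizzled-related protein 3, is a WNT decoy made by articular chondrocytes. It stood at 23.2, 3.82 and 27.9 FPKM in control and at 13.9, 3.93 and 7.58 FPKM in model. In SYD-H it stood at 6.16, 3.54 and 9.46 FPKM. Control replicates 1 and 3 were above every other library, but control replicate 2 sat among the model and SYD-H libraries, so the groups overlapped. The difference from control was -0.81 in model (SE 0.78, limma adjusted p = 0.618) and -1.10 in SYD-H (SE 0.74, adjusted p = 0.342), and neither passed. Without control replicate 2 those values were -1.63 (adjusted p = 0.322) and -1.92 (adjusted p = 0.0668), each with an unadjusted p under 0.05. That library also held the least chondrocyte marker RNA of its group, 511 FPKM against 12237 and 6326 in control replicates 1 and 3. Its sums of osteoblast, osteoclast, synovial fibroblast and endothelial markers were the lowest of its group too. Its neutrophil, B-lineage and erythroid sums were the highest. The part of these differences in the Frzb values was not tested.

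Sfrp1 and Sfrp2 encode relatives of Frzb that also capture WNT proteins through a Frizzled-like domain. Sfrp1 had 3.36, 3.08 and 4.13 FPKM in control, 2.96, 0.814 and 4.78 in model, and 8.74, 1.72 and 1.89 in SYD-H. A single SYD-H library, replicate 1, was above all the others, and the other 2 were below all control libraries. Sfrp2 had 5.61, 3.12 and 3.45 FPKM in control, 6.26, 0.613 and 16.4 in model, and 0.305, 2.21 and 9.58 in SYD-H. The treated and model libraries thus lay on both sides of the control range for each gene. For Sfrp1 the 3 differences were -0.38, 0.29 and -0.08 and for Sfrp2 0.25, -0.73 and -0.48, for model against control, SYD-H against model and SYD-H against control. Their SEs were 0.51 to 1.10, and the smallest limma p was 0.483.

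Summed over the 5 antagonists, the level was 49.3 ± 25.6 FPKM in control, 59.2 ± 12.8 in model and 92.4 ± 34.7 in SYD-H (SD, n = 3), and the groups overlapped. Wif1 made up 40.4% to 43.3% of it in the control libraries, 26.0% to 74.4% in model and 61.7% to 81.1% in SYD-H. Frzb made up 18.9% to 40.9% in control, 6.01% to 20.5% in model and 4.75% to 11.01% in SYD-H. The SYD-H and control ranges were apart for each of these shares, and the model range of Frzb overlapped both. The ratio of Wif1 to Frzb within a library, chosen after the values were seen, was 1.04, 2.29 and 1.06 in control. It was 3.06, 12.4 and 1.53 in model and 17.1, 10.7 and 6.50 in SYD-H. Between SYD-H and control the mean log2 ratio differed by 2.96, which is given as a description with no test. A ratio within a library does not depend on how libraries are scaled.

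**Figure D2:**
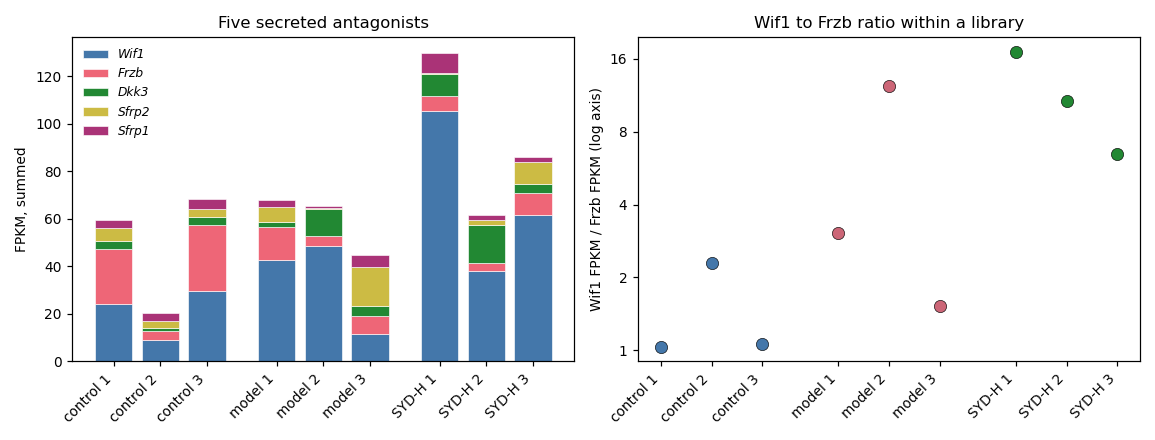
Left, FPKM of the 5 secreted antagonists stacked for each of the 9 libraries (linear axis from 0). Right, the ratio of Wif1 FPKM to Frzb FPKM within each library on a log axis, where the 3 SYD-H libraries lie at 6.50 to 17.1 and the 3 control libraries at 1.04 to 2.29.

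Of the receptors, none passed any threshold in any comparison of all libraries by limma on log2(FPKM + 1). Fzd1 encodes a Frizzled receptor for WNT proteins. It had 1.98, 1.37 and 2.42 FPKM in control, and 0, 3.13 and 0 in model. In SYD-H it had 1.92, 3.42 and 0. The libraries at 0 were the 3 with over 50% mitochondrial reads, in which 3 reads would correspond to 0.495 FPKM in model replicate 1, 0.271 in model replicate 3 and 0.156 in SYD-H replicate 3. A value of 0 in these libraries need not mean a level under those limits. Of 10440 genes with at least 1 FPKM in every control library, 24.3% were listed at 0 in model replicate 1, 17.3% in model replicate 3 and 5.49% in SYD-H replicate 3, against 4.11% or less in the other model and SYD-H libraries. Among them was Gsk3a, a kinase found in most cells, at 12.2 to 14.8 FPKM in control and 0 in model replicate 1. In the other model and SYD-H libraries Fzd1 rested on 85 to 162 reads. The SYD-H against control difference was -0.30 (SE 0.56), and it was 0.31 without SYD-H replicate 3. In model against control it was -0.85 (SE 0.62, limma adjusted p = 0.510), and without model replicate 2, the one model library above 0, it was -1.53. That fit called it (adjusted p = 0.0148), but with a model arm of 2 libraries at 0, the ones in which a 0 need not mean a low level.

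Lrp5 and Lrp6 encode the paired co-receptors of the canonical pathway. Lrp5 had 7.95, 4.85 and 7.81 FPKM in control, 1.43, 8.13 and 3.73 in model, and 14.3, 8.34 and 3.70 in SYD-H. Lrp6 had 3.72, 1.67 and 3.37 FPKM in control, 5.58, 2.92 and 2.32 in model, and 3.87, 2.91 and 1.17 in SYD-H. Every comparison of either gene had overlapping groups. Lrp5 was lowest in the same 3 libraries in which Fzd1 was at 0. Its largest difference was 0.90 for SYD-H against model (SE 0.66, interval -0.69 to 2.49, limma adjusted p = 0.723), and that of Lrp6 was -0.35 in the same comparison (SE 0.52, interval -1.60 to 0.90, adjusted p = 0.830). In model against control Lrp5 differed by -0.71 (SE 0.54, limma adjusted p = 0.528), and without model replicate 2 by -1.19 (adjusted p = 0.128), which passed the fold and unadjusted p threshold.

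Axin2 is the negative-feedback scaffold of the pathway and its most used reporter of β-catenin activity. It had 1.45, 0.708 and 1.59 FPKM in control, from 140, 84 and 202 reads. Model libraries had 0, 0.763 and 0 FPKM, and SYD-H libraries 0.619, 0 and 0 FPKM. The 3 SYD-H libraries lay below the 3 control libraries, and in model a single library with 65 reads reached the control range. At 0 reads, 3 reads would give 0.256 FPKM in model replicate 1, 0.140 in model replicate 3, 0.033 in SYD-H replicate 2 and 0.081 in SYD-H replicate 3, all below the lowest control library. Such limits cover counting error only, and 3 of these 4 libraries are those in which the largest shares of control-expressed genes were listed at 0. The difference from control was -0.87 in model (SE 0.33, limma p = 0.0353, adjusted p = 0.219, exact permutation p = 0.2) and -0.91 in SYD-H (SE 0.27, limma p = 0.0145, adjusted p = 0.0670, exact permutation p = 0.1). Axin2 had the lowest mean level of the 10, and the size of its differences depends on the pseudocount. With a pseudocount of 0.1 they were -2.64 and -2.73, sizes that depend on the zeros and the pseudocount. That pseudocount is below the 3-read limits of model replicates 1 and 3 and above those of SYD-H replicates 2 and 3. Both differences from control kept their sign in every fit that was run. For model against control the value was -0.26 under quantile normalization (limma adjusted p = 0.518) and -0.33 in the libraries under 50% mitochondrial reads (adjusted p = 0.444), and neither passed an unadjusted p of 0.05. In the model comparison the limma p exceeded 0.05 in 4 of the 6 fits without 1 library, while Axin2 passed the fold and p threshold in the other 2, at -1.06 without control replicate 2 (adjusted p = 0.326) and at -1.15 without model replicate 2 (adjusted p = 0.0328), where both remaining model libraries were at 0. In the SYD-H comparison the limma p was 0.0502 without SYD-H replicate 2 and 0.0476 or less in the other 5. Axin2 also passed the fold and p threshold there without control replicate 2 and without SYD-H replicate 1, where both remaining SYD-H libraries were at 0.

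Ctnnb1 encodes β-catenin itself, which also links cadherins to the cytoskeleton at cell contacts. Control libraries had 79.6, 50.9 and 71.0 FPKM. Model libraries had 109, 133 and 96.0 FPKM, and SYD-H libraries had 140, 114 and 115 FPKM. All 6 libraries from operated joints were above all 3 control libraries, and model and SYD-H overlapped. Ctnnb1 was higher than in control by 0.75 in model (SE 0.27, interval 0.09 to 1.40, limma p = 0.0312, adjusted p = 0.206, exact permutation p = 0.1) and by 0.88 in SYD-H (SE 0.21, interval 0.37 to 1.40, limma p = 0.00592, adjusted p = 0.0408, exact permutation p = 0.1). On group means the ratios to control were 1.68 and 1.83. The second was the 1 member value past an adjusted p of 0.05, although its size stayed under the fold threshold. With the replicate block no tested gene passed an adjusted p of 0.05 in SYD-H against control, the smallest by limma being 0.0524. Both differences turned negative when libraries were rescaled to TPM, to -2.42 and -0.65, where the median of all tested genes moved to -2.60 and -1.31. Relative to those medians Ctnnb1 was 0.18 and 0.66 higher. When libraries were scaled instead to equal non-mitochondrial reads, the differences were 0.67 (limma adjusted p = 0.306) and 0.88 (adjusted p = 0.0351). Under quantile normalization the model difference was 0.52 (adjusted p = 0.414), and under both of these scalings its unadjusted p was over 0.05. Without 1 library in turn the model difference ran from 0.56 to 0.88, with a limma adjusted p from 0.162 to 0.530 and an unadjusted p over 0.05 in 4 of the 6 fits (without control replicate 2 or 3 or model replicate 1 or 2). In the same way the SYD-H difference kept a p under 0.05, at 0.70 to 1.01, while its adjusted p ran from 0.0497 without SYD-H replicate 3 to 0.126 without control replicate 3 and was over 0.05 in 5 of the 6 fits.

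**Figure D3:**
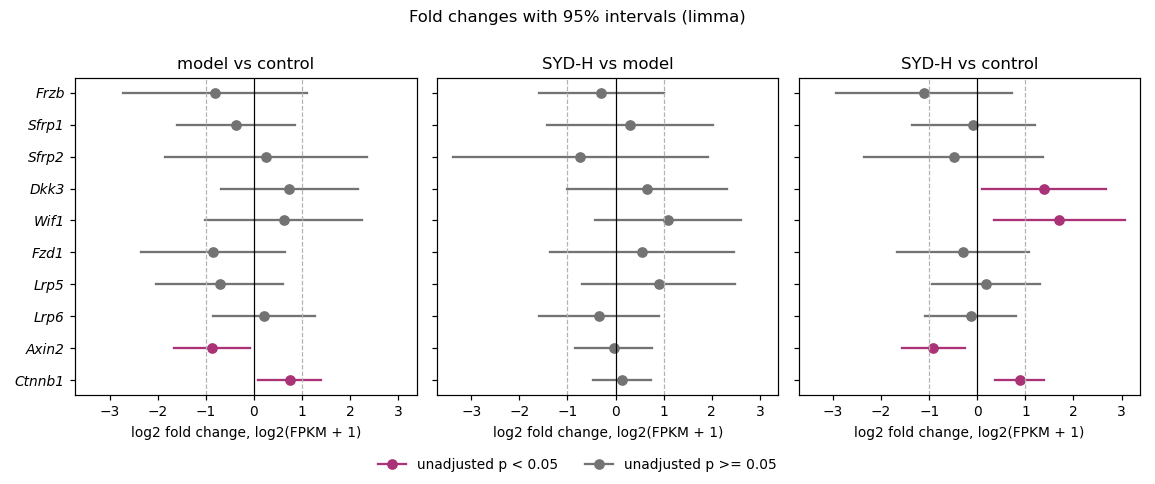
Difference between groups for each gene in log2(FPKM + 1) (horizontal axis; points, limma estimates; lines, 95% intervals; n = 3 libraries per group), with dashed lines at -1 and 1. Intervals clear of 0 appear for Axin2 and Ctnnb1 in model against control, for none of the genes in SYD-H against model, and for Dkk3, Wif1, Axin2 and Ctnnb1 in SYD-H against control.

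Counted over the 10 genes, the comparison of model with control gave few calls. In model against control 0 of the 10 passed the fold and p threshold, where 14.7% of all tested genes did. By unadjusted p alone 2 of 10 passed, Axin2 and Ctnnb1, against 19.2% of all genes. By adjusted p 0 of 10 passed, against 2.59% of all genes (360, with 0 to 2621 without 1 library, the lowest when any 1 of the control libraries was left out and the highest without model replicate 2), and the groups did not overlap for 1 of 10, Ctnnb1, against 28.7%. The median difference of the 10 was -0.08, beside -0.23 over all tested genes. Voom on recovered reads called 3 of 10, Sfrp1 (-1.67), Dkk3 (1.81) and Axin2 (-3.91), where it called 23.6% of all tested genes.

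In SYD-H against model, which asks what treatment changed in operated joints, no gene of the 10 passed. By limma the fold and p threshold called 0 of 10 (4.15% of all genes), the unadjusted p 0 of 10 (5.26%) and the adjusted p 0 of 10 (0% of all genes). The groups overlapped for all 10 genes, while they did not for 11.1% of all genes. The median of the 10 was 0.21 and that of all tested genes 0.22. Voom on recovered reads, the other tool run, also called 0 of the 10, where it called 7.76% of all genes.

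In SYD-H against control, 2 of 10 passed the fold and p threshold, Wif1 and Dkk3, both upward, while 16.5% of all genes passed in either direction. By unadjusted p 4 of 10 passed, the same 2 with Axin2 and Ctnnb1, against 34.5% of all genes. By adjusted p 1 of 10 passed, Ctnnb1, against 17.3% (2407 genes, with 209 without control replicate 3, 592 without control replicate 2 and 758 without control replicate 1). The groups did not overlap for 4 of 10, against 42.5%. The shares of the WNT genes were thus near the background in this comparison. The control libraries served in 2 comparisons and the model and SYD-H libraries likewise, so the 3 sets of values are not independent. A limma F test over the 3 groups called 0 of 10 genes at an adjusted p under 0.05, where 2.32% of all genes passed (323, with 5 without control replicate 1 and 2604 without model replicate 2), and the smallest adjusted p was 0.174, for Ctnnb1. Exact permutation F tests gave p = 0.0143 for Ctnnb1, the smallest of the 10, and p = 0.0857 to 0.818 for the other 9, with no adjustment for the number of genes and 0.00357 as the smallest possible.

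The libraries did not deviate alike over these genes. Control replicate 2 was the lowest of its group for 10 of 10 genes, whereas it was lowest for 39.4% of all tested genes. SYD-H replicate 1 was the highest of its group for 6 of 10, against 32.9% of all genes, and model replicate 2 was highest for 6 of 10, against 39.6%. With only the 6 libraries under 50% mitochondrial reads, 1 of them model, a choice made after seeing the data, model against control called 3 of 10 genes, beside 23.8% of all genes. These were Sfrp1 (-1.31, adjusted p = 0.0307), Sfrp2 (-1.62, adjusted p = 0.0491) and Dkk3 (1.80, adjusted p = 0.0574), on the assumption that the lone model library varied like the controls. In those libraries SYD-H against control called 2 of 10, Dkk3 (1.90) and Sfrp2 (-1.27), beside 18.7% of all genes. That is the same fit as the one without SYD-H replicate 3 and no separate check.

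Across the 9 libraries, the levels of some of the 10 genes varied together. The highest Pearson correlations of log2(FPKM + 1) were 0.82 between Fzd1 and Lrp5, 0.81 between Wif1 and Ctnnb1 and 0.72 between Dkk3 and Ctnnb1. The lowest were -0.77 between Sfrp2 and Fzd1 and -0.72 between Sfrp2 and Lrp5. The points share library, depth and group, so these are descriptions. By the same measure the tested genes most like Wif1 were Adamts9 (0.97), Gxylt2 (0.96) and Abr (0.96), those most like Lrp5 were Nckap5l, Pdgfrl and Fam43a (each 0.98), and those most like Ctnnb1 were Dlc1 (0.98), Plcg1 (0.97) and Maoa (0.97).

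The rest of the pathway was read from a list of 113 other WNT genes, of which 112 were in the table and 85 were tested. In model against control 4 of the 85 rose and 7 fell by the fold and p threshold (12.9% of the list). In SYD-H against model 5 rose and none fell (5.88%), and in SYD-H against control 12 rose and 5 fell (20%). Over all tested genes 493 rose and 1553 fell (14.7%), 503 rose and 74 fell (4.15%), and 1007 rose and 1282 fell (16.5%) in the same comparisons, so the list's share was below, a little above and above that of all genes. Under TPM rescaling, the splits of the list were 0 up and 57 down, 3 up and 0 down, and 0 up and 23 down. Those of all tested genes were then 38 up and 10407 down (75.2%), 519 up and 10 down (3.81%), and 128 up and 5901 down (43.4%). Past an adjusted p of 0.05 there were 1, 0 and 14 of the 85 genes, beside 2.59%, 0% and 17.3% of all tested genes. The first of these counts was 11 without model replicate 2, and the last was 1 without control replicate 3, 4 without control replicate 1 or 2, 6 without SYD-H replicate 2, 1 with all 9 libraries in one fit and 0 with the replicate block, where limma still called 17 by the fold and unadjusted p threshold and voom without the block gave 20 by adjusted p. The called genes that stayed called in every fit without 1 library were 4 of 11 (Frat1, Tle1, Vegfa and Wnt10b), 1 of 5 (Wnt10b) and 8 of 17 (Ccnd1, Dvl1, Fzd6, Jun, Lef1, Tle1, Tle2 and Vegfa), and the other calls named next were lost without at least 1 library. For Wnt10b this says nothing of the model arm, since all its model libraries are listed at 0. The medians were -0.20, 0.38 and 0.17, beside -0.23, 0.22 and 0 over all tested genes.

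Among 11 tested ligands and secretion factors, 2 fell in model against control and 2 rose in SYD-H against model. The groups did not overlap for Wnt10b in any of the 3 comparisons. WNT10B is a canonical ligand known for driving bone formation. It had 1.01, 1.08 and 1.44 FPKM in control, was listed at 0 in all 3 model libraries, and had 2.68, 2.98 and 3.81 FPKM in SYD-H. Since many genes present in control were listed at 0 in the model libraries, no fold is given. The limma adjusted p was 0.0406 for model against control and 0.723 for SYD-H against model (unadjusted p = 0.000572). Rspo3, an R-spondin that strengthens WNT signals, was also listed at 0 in all model libraries, and had 2.25, 0.513 and 1.61 FPKM in control. Wnt4 rose in SYD-H against model (1.54, adjusted p = 0.723), from 0, 1.39 and 0 FPKM to 3.88, 3.74 and 1.56, with both zeros in the model libraries over 50% mitochondrial reads. Wls, which carries WNT proteins to the cell surface, and Wnt5b had the highest mean levels of this role, and neither passed in any comparison.

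Of 10 other tested antagonists, 3 passed, all in SYD-H against control. Cthrc1, a secreted protein that binds WNT and Frizzled, rose (1.38, adjusted p = 0.0811), from 25.9, 8.54 and 18.1 FPKM to 29.6, 53.5 and 51.2. Sost, the osteocyte inhibitor of LRP5 and LRP6, fell (-1.68, adjusted p = 0.112), from 13.1, 5.57 and 15.3 FPKM to 6.61, 0.844 and 2.24. Sfrp5, a further relative of Frzb, fell as well (-2.06, adjusted p = 0.121), from 15.3, 1.82 and 14.1 FPKM to 0.776, 0.496 and 2.62. The Cthrc1 difference was -0.10 under TPM rescaling, whereas Sost and Sfrp5 stayed negative. The part in Cthrc1 of the synovial fibroblast markers, whose sums were higher in every SYD-H library than in every control library, was not tested.

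Of 13 other tested receptors, 1 fell in model against control, 3 rose in SYD-H against model and 4 rose in SYD-H against control. Fzd9 was the one that fell (-2.10), from 9.40, 1.10 and 7.32 FPKM in control to 0, 1.31 and 0 in model. Among the control libraries it was lowest in replicate 2, the one with the least chondrocyte marker RNA, and so was Sfrp5. All 10 WNT genes, Frzb included, were lowest of the group in that library. Of the 16 chondrocyte markers 9 were called down in model against control and 2 in SYD-H against control, and their part in the values of Fzd9 and Sfrp5 was not tested. Fzd9 was among those that rose in SYD-H against model (1.15), with Ptk7 (2.14), a co-receptor of planar polarity signaling, and Lgr6 (1.16), an R-spondin receptor. Each had an adjusted p of 0.723 there. All 3 were lowest in the 2 model libraries with over 50% mitochondrial reads, and under other settings the differences went as low as 0.12 for Fzd9, 0.86 for Ptk7 and 0.43 for Lgr6. Without 1 library in turn they stayed called in 1, 2 and 2 of 6 fits. Against control, Fzd6 (1.31, adjusted p = 0.0206), Lrp4 (1.13, adjusted p = 0.0629) and the R-spondin receptor Lgr4 (1.06, adjusted p = 0.108) rose in SYD-H, with Fzd6 at 1.32, 0.453 and 1.15 FPKM in control and 3.28, 4.29 and 3.91 in SYD-H. Under TPM rescaling Lrp4 and Lgr4 changed sign. Ryk, the highest receptor of this list by mean level, did not pass.

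In the cytoplasm, 20 genes of the list were tested. Frat1, which inhibits the kinase GSK3 in this pathway, fell in model (-2.15, adjusted p = 0.123) and in SYD-H (-1.19, adjusted p = 0.0289) against control. It had 4.74, 7.83 and 5.01 FPKM in control, 2.49, 0 and 0 in model, and 2.16, 1.43 and 2.36 in SYD-H, so every operated library was below every control. Of the Dishevelled genes, which relay the signal from Frizzled, Dvl2 fell in model against control (-1.52, adjusted p = 0.233), with 0, 3.39 and 0.962 FPKM in the model libraries and the 2 lowest values in the libraries over 50% mitochondrial reads. The difference was as small as -0.42 under other settings and stayed called in 1 of the 6 fits without 1 library. Dvl2 was at -0.49 in SYD-H against control (adjusted p = 0.143), which was not called. Dvl1 rose in SYD-H against control (1.14, adjusted p = 0.0130) and turned to -0.30 there under TPM rescaling, while its difference of 0.85 in model against control (adjusted p = 0.437) was not called. Btrc, part of the ligase that removes β-catenin, fell in SYD-H against control (-1.06, adjusted p = 0.0433). Csnk1a1, a kinase of the destruction complex, did not pass in any comparison.

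Of 16 tested nuclear partners, 2 rose and 1 fell in model against control, and 3 rose and 1 fell in SYD-H against control. Lef1, a DNA-binding partner of β-catenin, had 4.95, 4.73 and 5.13 FPKM in control. It had 2.05, 1.34 and 0 FPKM in model and 1.24, 0.972 and 1.89 in SYD-H. The differences were -1.62 (adjusted p = 0.155) and -1.34 (adjusted p = 0.0139). Tle1, a Groucho co-repressor of TCF and LEF factors, had 0.894, 0.352 and 0.604 FPKM in control, 3.40, 3.94 and 2.59 in model, and 2.63, 3.42 and 2.04 in SYD-H. It rose by 1.41 (adjusted p = 0.0867) and 1.19 (adjusted p = 0.0216), with the first turning to -0.33 under TPM rescaling. Its relative Tle2 rose in SYD-H against control (2.13, adjusted p = 0.00814), and Tcf7 rose in model against control (1.01, adjusted p = 0.217), also with a change of sign under TPM rescaling. Lef1 was lower than in every control library, and Tle1 higher, in all 6 operated libraries. The highest mean levels of this role belonged to the co-repressors Tle5 and Ctbp1, and neither was called, although Ctbp1 was lower in SYD-H than in control by an adjusted p of 0.0416 (-0.85).

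Target genes of the pathway other than Axin2 went both ways. Of 15 tested, 2 rose and 1 fell in model against control, none passed in SYD-H against model, and 3 rose in SYD-H against control. Vegfa, an angiogenic factor, rose in both comparisons with control (1.50, adjusted p = 0.122, and 1.996, adjusted p = 0.0460), from 8.66, 2.84 and 6.32 FPKM in control to 14.1, 16.1 and 22.8 in model and 43.3, 14.5 and 24.1 in SYD-H. Jun, a subunit of AP-1, rose as well (1.40, adjusted p = 0.218, and 1.93, adjusted p = 0.0126). Ccnd1, which encodes cyclin D1, rose in SYD-H against control (1.60, adjusted p = 0.0200), and Myc fell in model against control (-1.34, adjusted p = 0.216). In model against control, Vegfa and Jun changed sign under TPM rescaling. Cd44, the highest target after Vegfa by mean level, did not pass. Many of these genes also answer to other pathways. Endothelial markers summed to 30.0 to 42.7 FPKM in control, 26.6 to 247 in model and 113 to 141 in SYD-H, and osteoclast markers to 616 to 1064, 450 to 1792 and 2010 to 2693 FPKM. Of 8 B-lineage markers, 6 were called down in each comparison with control, and their sum was 276 to 363 FPKM in control, 16.9 to 51.6 in model and 16.2 to 47.1 in SYD-H, so it was lower in all 6 operated libraries, as Lef1 and Frat1 were. Neutrophil markers summed to 3094 to 5846, 71.9 to 7817 and 526 to 3367 FPKM, with 5 and 6 of 8 tested called down in model and SYD-H against control, and erythroid markers to 6563 to 16314, 296 to 42470 and 1312 to 13582 FPKM, with 5 of 8 called down in SYD-H against control. The part of these cells in the list's values, those of Lef1, Frat1, Btrc and Myc included, was not tested.

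**Figure D4:**
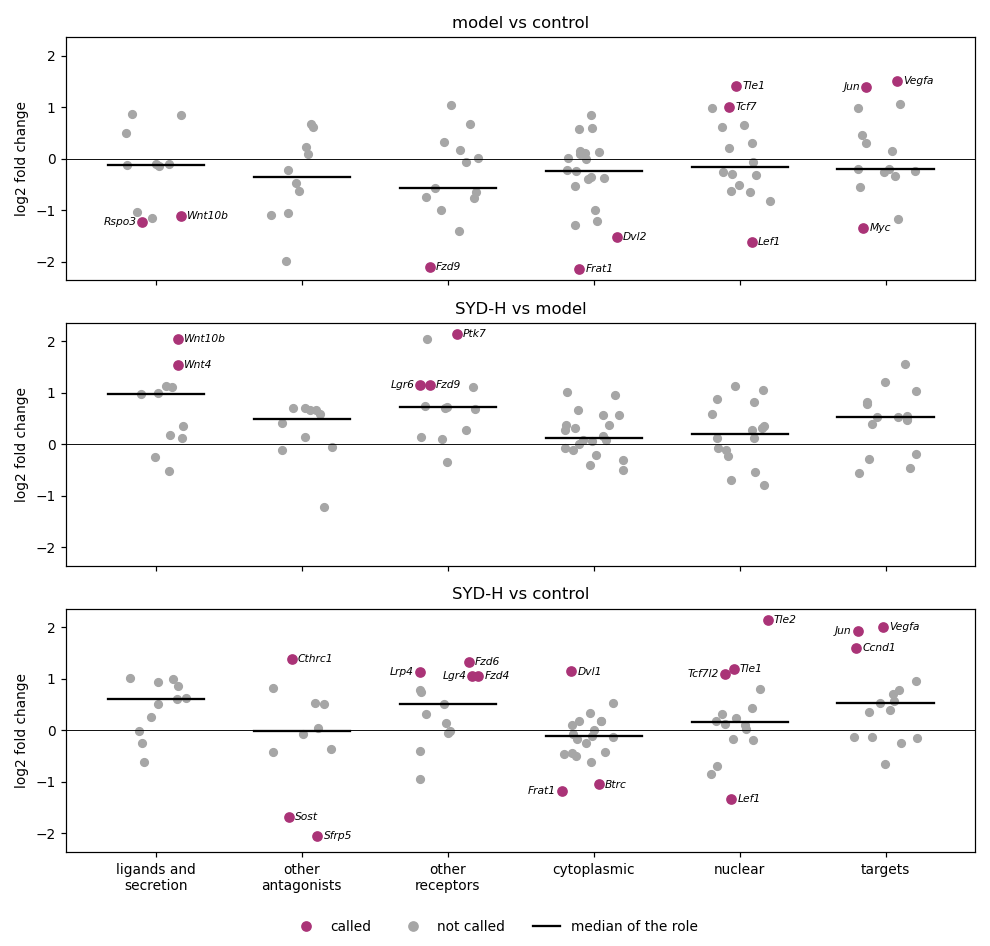
Difference in log2(FPKM + 1) for the 85 tested genes of the wider WNT list by role (points), for each comparison, with called genes colored and named and a bar at the median of each role. Calls above 0 number 4, 5 and 12 and calls below 0 number 7, 0 and 5 from the top panel to the bottom.

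**Figure D5:**
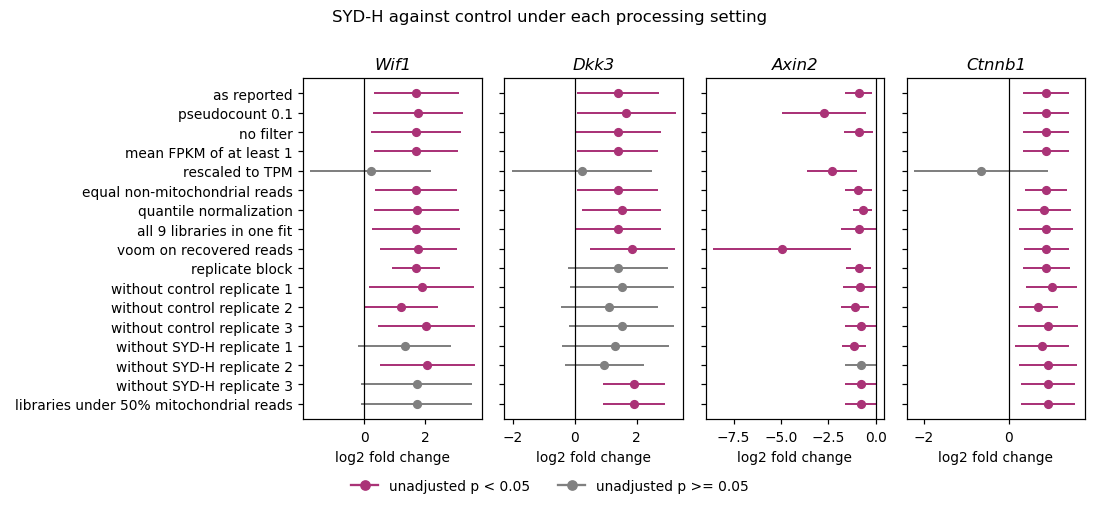
SYD-H against control for 4 WNT genes under each processing setting (points, log2 difference; lines, 95% intervals; horizontal scales differ between panels). The estimates for Wif1, Dkk3 and Axin2 keep their sign in all settings, and that for Ctnnb1 turns negative under rescaling to TPM, at -0.65.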

How the data were processed

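Libraries were made from total RNA with the Illumina TruSeq RNA kit. The submitters' processing notes name HISAT2 2.0.5 and the human build hg38 with no role, while the gene identifiers and positions in the table are those of rat; the counter and the build of those positions are not given in the sources used here, and the table's positions were not used. The authors deposited 1 table of FPKM per gene and library. In each library 100% of the values were whole multiples of a single step within a tolerance of 0.1, from which reads were recovered. The library size implied by that step was 2.01 to 2.18 times the recovered reads in control, 0.193 to 1.44 times in model and 0.609 to 1.65 times in SYD-H, so the deposited FPKM had been scaled by more than total reads.

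Genes with a mean of at least 0.5 FPKM were tested in log2(FPKM + 1) with limma 3.58.1 (R 4.3.3), each comparison on its own 6 libraries, with Benjamini-Hochberg adjustment over all genes tested. Single values used exact two-sided permutation tests. Genes were called at p under 0.05 with an absolute log2 fold change over 1. The 10 genes and the lists were chosen with earlier results of these data known. From the wider list, the text names per role the 2 tested genes with the highest mean FPKM and, per comparison, up to 3 called genes with the largest difference. Alternatives covered the pseudocount, the filter, the scaling, the fit, voom on recovered reads, the replicate block and each library left out. The script was tested on simulated data. Matching of upstream words used Python 3.11.15.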

Additional observations from a re-analysis of the deposited data

How the results depend on the processing

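There were 477 values of single genes under other settings. Of these, 392 kept their direction and stayed on the same side of the combined fold and p threshold. Another 46 changed sign. With the sign kept, 28 passed the threshold newly and 11 no longer passed it. Some of the 46 also passed it newly, such as Sfrp2, Lrp6 and Ctnnb1 in model against control under TPM. The p alone of Axin2 and Ctnnb1, which were under the fold threshold as reported, is not part of these counts. In model against control the number of the 10 WNT genes called was 0 as reported, 1 with a pseudocount of 0.1, 8 under TPM, 3 with voom on recovered reads, 3 with only libraries under 50% mitochondrial reads, and 0 to 3 without 1 library (2 without control replicate 2, 3 without model replicate 2). In SYD-H against control it was 2, with 1 to 3 without 1 library, and no such fit called Wif1 and Dkk3 together. Without SYD-H replicate 1 the 1 call was Axin2, downward. The calls were 1 up and 2 down without control replicate 2, and 1 up and 1 down without SYD-H replicate 3. Without control replicate 3 or SYD-H replicate 2 there was 1 call, upward in each fit. Under TPM the 3 called were other genes, all lower, Frzb, Sfrp2 and Axin2. The F test called 0, 5 under TPM and 1 with only libraries under 50% mitochondrial reads. The causes were not tested. Under TPM the values that changed sign were Sfrp2 -2.65, Dkk3 -1.58, Wif1 -2.42, Lrp6 -2.29 and Ctnnb1 -2.42 in model against control, Frzb 1.13, Sfrp2 0.44, Lrp6 0.89 and Axin2 0.037 in SYD-H against model, and Lrp5 -1.22 and Ctnnb1 -0.65 in SYD-H against control. With voom the values that changed sign were Sfrp2 -1.63 in model against control, and Frzb 0.13 and Sfrp2 0.27 in SYD-H against model. In libraries under 50% mitochondrial reads the values that changed sign were Sfrp2 -1.62, Fzd1 0.52 and Lrp5 0.24 in model against control, Frzb 0.21, Sfrp2 0.34, Fzd1 -0.20, Lrp6 0.16 and Ctnnb1 -0.072 in SYD-H against model, and Sfrp1 0.19, Fzd1 0.31 and Lrp6 0.20 in SYD-H against control. Without 1 library, sign changes lay in the ranges of Sfrp1 -0.75 to 0.088, Sfrp2 -0.53 to 1.18 and Lrp6 -0.078 to 0.42 in model against control, Frzb -0.69 to 0.10, Sfrp1 -0.30 to 0.66, Sfrp2 -1.67 to 0.048 and Axin2 -0.27 to 0.23 in SYD-H against model, and Sfrp1 -0.68 to 0.24, Sfrp2 -1.27 to 0.24, Fzd1 -0.76 to 0.31, Lrp5 -0.22 to 0.63 and Lrp6 -0.39 to 0.20 in SYD-H against control. Over all genes, the median difference under TPM was -2.60, 1.22 and -1.31, and under quantile normalization 0.04, -0.02 and 0.04, beside -0.23, 0.22 and 0 as reported. All genes called in model against control numbered 2046, 10445 under TPM, 3275 with voom, 3302 in libraries under 50% mitochondrial reads and 1309 to 3344 without 1 library. In SYD-H against model they numbered 577, 1220 with all 9 libraries in one fit, 1078 with voom and 315 to 2495 without 1 library, and in SYD-H against control 2289 and 6029 under TPM. The wider list had 11, 57 under TPM, 21 with voom, 20 in libraries under 50% mitochondrial reads and 4 to 17 without 1 library in model against control, 5, 10 with all libraries in one fit, 8 with voom, 3 under TPM, 3 in libraries under 50% mitochondrial reads and 1 to 19 without 1 library in SYD-H against model, and 17 in SYD-H against control. Correlations of deviations ran from -0.27 to 0.19 between same-numbered libraries and from -0.31 to 0.26 between different-numbered ones. With 3 libraries per group they cannot decide whether replicate numbers pair the libraries. With the replicate block, 0, 0 and 2 of the WNT genes were called, the last being Frzb (-1.10, adjusted p = 0.171) and Wif1 (adjusted p = 0.0617), while Dkk3 no longer passed (adjusted p = 0.214). In model replicate 1, 3 reads were worth 0.495 FPKM of Fzd1 and 0.256 FPKM of Axin2. The lowest control libraries had 1.37 FPKM of Fzd1 and 0.708 FPKM of Axin2. The part of depth in the zeros of both genes was not tested.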
